A study of Mus musculus with 24 samples.

Results

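The 10 genes described here make, break down or supply haem and its iron in the mouse kidney after myocardial infarction (MI). They were chosen by name out of the 56941 genes of the count table. They are Alas1, Alas2, Alad, Urod, Cpox and Fech of haem synthesis, the mitochondrial iron importer Slc25a37 (mitoferrin-1), the haem-degrading enzyme Hmox1, the ferritin heavy chain Fth1 and the transferrin receptor Tfrc. All were measured in whole kidneys of male wildtype C57BL/6J mice by MACE, a 3′-end RNA sequencing method with molecular identifiers. The MI groups had the left anterior descending coronary artery tied off for good and were sampled 5d (n = 8) or 28d (n = 6) later, and sham mice (n = 8) had the operation without ligation. Sham kidneys came from 5d after the operation and were the controls of both times, so that mice of the 28d group differed from sham in time after surgery as well as in infarction. Total counts per kidney were between 2280618 and 3786275. On GRCm38 (GENCODE M21) the members of the central results lie at chr14:69241848-69285112 (Slc25a37, minus strand), chr16:32608920-32632794 (Tfrc, plus), chr9:106233455-106248654 (Alas1, minus), chr8:75093621-75100589 (Hmox1, plus) and chr19:9980598-9985098 (Fth1, plus). Levels are given as CPM, the counts scaled to a fixed total per kidney after correction of that total by edgeR's TMM factor, which can be compared between kidneys for 1 gene but not between genes.

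Haem is built in a chain of enzymatic steps shared between mitochondria and cytosol, and the first, the joining of glycine to succinyl-CoA, sets the rate. Alas1 carries it out in most tissues and Alas2 in cells that form red blood cells. Breakdown by Hmox1 releases iron, carbon monoxide and biliverdin, and Hmox1 is known for its induction by free haem in the kidney. Ferritin stores the iron, and Tfrc takes up transferrin-bound iron. Iron regulatory proteins bind a hairpin, the iron responsive element, in some of these mRNAs when iron is scarce. They then hold back translation where the hairpin is in the 5′ untranslated region (UTR) and protect the mRNA where it is in the 3′ UTR. The question was whether these genes differed in kidneys that carried more blood RNA at 5d post-MI.

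The hairpin letters of the members are shown because their place divides mRNAs that iron regulatory proteins protect from those whose translation they hold back. Other controls of RNA level, such as the induction of Hmox1 by haem, are not read from these letters. UTRs of GENCODE M21 (GRCm38), read on the transcript's strand, were searched for the loop CAGTGN, with A, C or T as its last base. The loop had to lie between stems of 5 bases that pair by Watson-Crick or G-T pairs, with an unpaired C before the first stem. Of 21175 genes with an annotated UTR, 120 held a match, or 0.567%. Among the members other than Fech, for which matches were not kept, these were Fth1 and Alas2 in the 5′ UTR and Tfrc, with 4 matches, in the 3′ UTR. The sequences below run 5′ to 3′, and capitals mark the loop. The Alas2 match is spliced, from chrX:150547458-150552149, the Fth1 match is at chr19:9982732-9982760, and the Tfrc matches start at chr16:32631219-32631247 and end at chr16:32631710-32631738, all on the plus strand.
Fth1: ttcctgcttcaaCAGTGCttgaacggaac
Alas2: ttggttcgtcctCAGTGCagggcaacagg
Tfrc, site 1: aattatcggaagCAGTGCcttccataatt
Tfrc, site 2: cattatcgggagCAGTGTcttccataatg
Tfrc, site 3: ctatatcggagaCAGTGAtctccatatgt
Tfrc, site 4: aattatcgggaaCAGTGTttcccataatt
A match describes letters only, and binding to them was not measured here. Counts of Fth1 and Alas2 RNA do not read the translation that their 5′ hairpins are known to govern.

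Haemoglobin RNA, the measure of blood in these kidneys, was far higher at 5d post-MI. The summed level of the alpha-globin genes Hba-a1 and Hba-a2 and the beta-globin genes Hbb-bs and Hbb-bt was 3527 ± 614 CPM in sham kidneys (SD, n = 8), 9860 ± 4523 CPM at 5d post-MI (SD, n = 8) and 2860 ± 1203 CPM at 28d post-MI (SD, n = 6). The lowest 5d kidney was at 4967 CPM and the highest sham kidney at 4123 CPM, so that these groups did not overlap. The mean log2 CPM of the 4 genes was 1.40 above sham at 5d (exact permutation test, two-sided, p = 0.0001554, the smallest that 8 against 8 kidneys can give), and its difference from sham at 28d was −0.37 (exact permutation p = 0.121). More blood in the tissue and more haemoglobin RNA per red cell cannot be told apart in bulk RNA, and for every gene here fewer cells of a type and less RNA per cell cannot be told apart either.

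None of the members passed the test over all genes at 5d post-MI. Of the 10, 9 had enough counts for the edgeR quasi-likelihood fit and Alas2 did not. Their lowest Benjamini-Hochberg adjusted p was 0.120, and 0 of 9 were called, where 9 of 12780 tested genes, or 0.0704%, were called. At an unadjusted p under 0.05 stood 3 of the 9, Slc25a37, Tfrc and Alas1, against 7.9% of all tested genes. Where no other fit or setting is named, the adjusted p-values below come from this fit, adjusted over all tested genes within each comparison. Those of the slope come from a model that also held the haemoglobin level.

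Slc25a37, which brings iron into mitochondria for haem and iron-sulphur clusters, had the lowest p of the members. Its level was 32.7 CPM in the lowest, 36.4 in the median and 54.1 in the highest sham kidney, against 41.5, 47.6 and 65.0 CPM at 5d post-MI. Every 5d kidney (8 of 8) was above the sham mean of 38.5 ± 6.68 CPM, and 3 were above every sham kidney, with replicate 8 of the sham group standing apart at 54.1 CPM. The 5d mean was 50.9 ± 8.47 CPM, or 31.4% above sham (95% interval 14.7% to 50.6%), with a log2 difference of 0.39 (SE 0.097) and an adjusted p of 0.120. It ranked 26 of the 12780 genes by p. Without sham replicate 8 the adjusted p was 0.0210, without 5d replicate 1 it was 0.0364 and with no filter on low counts it was 0.00140, so that 1 kidney or the filter decided this call. At 28d post-MI the level was 40.5 ± 4.70 CPM, between 32.2 and 45.9 CPM, and 4 of 6 kidneys were below every 5d kidney. The 28d level was 20.4% below the 5d level by its point estimate (log2 −0.33, SE 0.106, adjusted p = 0.223). With no filter on low counts this was called (adjusted p = 0.0295), and with the haemoglobin level as a covariate it was 0.06 (SE 0.177).

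The slope of Slc25a37 on the haemoglobin level, taken within groups so that the group means do not enter, did not pass the test over all genes. It was 0.21 on the log2 scale for each log2 unit of haemoglobin (SE 0.082, 95% interval 0.05 to 0.38, adjusted p = 0.999). The 5d kidneys with the most haemoglobin, replicates 6 and 7, also had the highest Slc25a37 levels, 65.0 and 60.5 CPM. These were the 2 kidneys farthest from the median haemoglobin level, and without them the slope was 0.10 (SE 0.108, adjusted p = 0.967). Its size thus depended in part on them. When 1 kidney was left out, the slope ran from 0.17 to 0.24. With the haemoglobin level as a covariate the 5d difference was 0.08 on the log2 scale (SE 0.148), and with the score of the other red cell genes it was 0.20 (SE 0.129, adjusted p = 0.923). Haemoglobin levels of sham and 5d kidneys did not overlap (highest sham 9.87, lowest 5d 10.1 as mean log2 CPM). A fit with haemoglobin as a covariate can thus hardly separate group from haemoglobin, for any gene. Slc25a37 is strongly expressed in red cell precursors, and whether its 5d RNA came with the blood or from kidney cells was not tested.

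**Figure D1:**
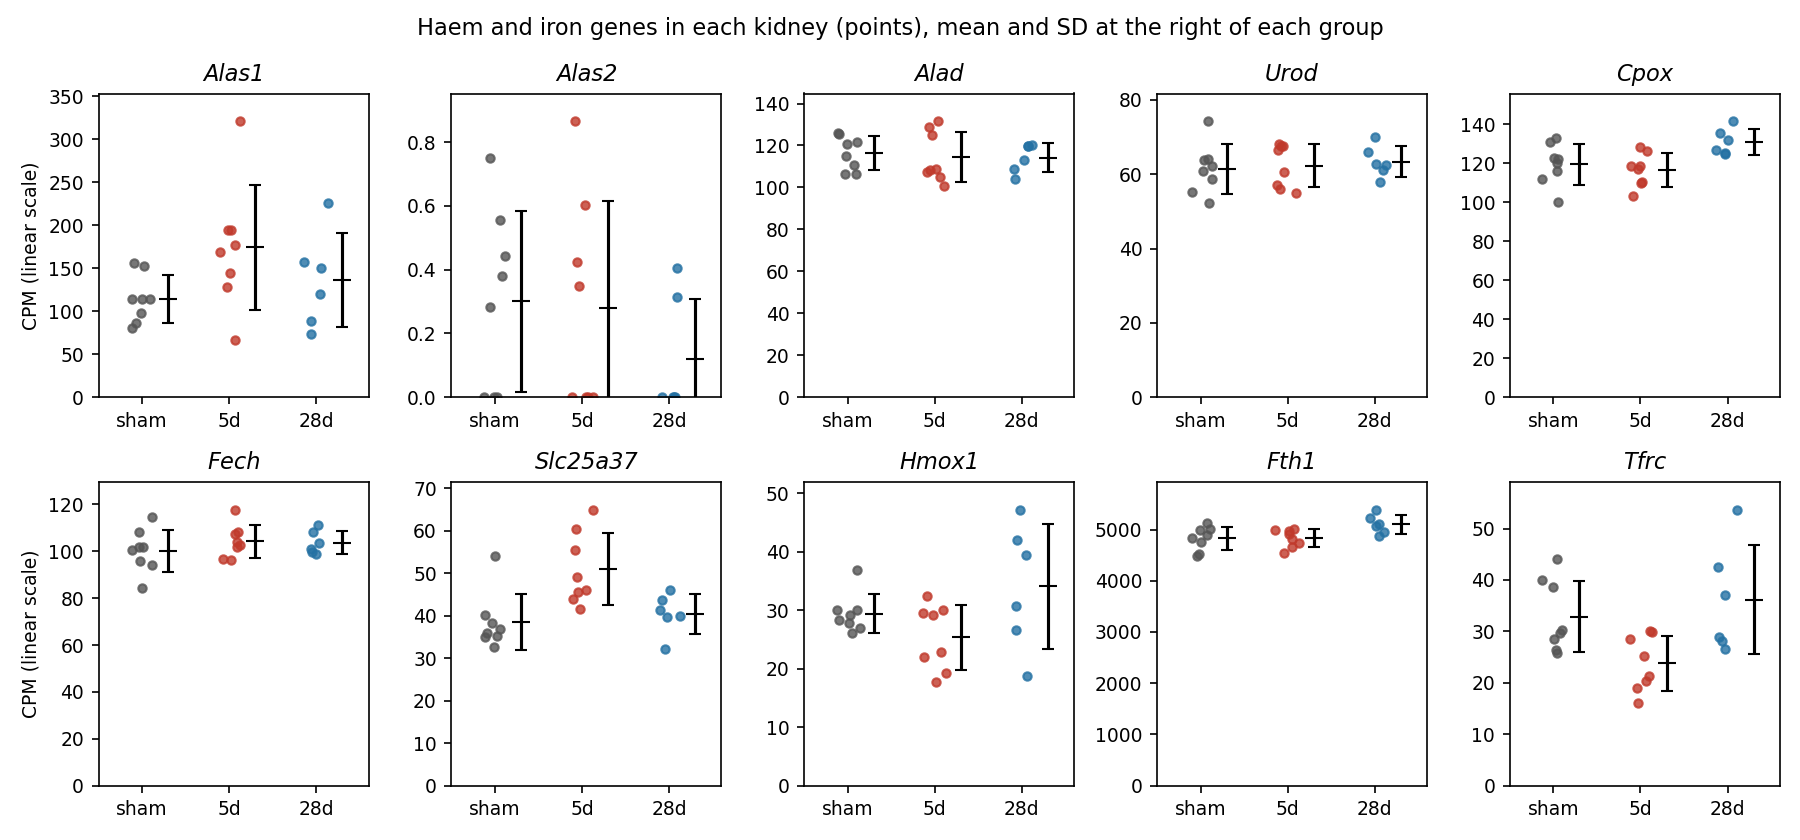
Each panel plots 1 member in CPM on a linear axis that starts at 0, with a point for each kidney of the sham (grey), 5d post-MI (red) and 28d post-MI (blue) groups and the mean ± SD beside each group. Slc25a37 lies higher and Tfrc lower at 5d post-MI with overlapping groups, while the ranges of Alad, Urod and Fech overlap in all 3 groups.

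Tfrc, the receptor for transferrin-bound iron and a member with 3′ hairpins, was at its lowest at 5d post-MI. The sham kidneys ran from 25.8 through a median of 30.0 to 44.1 CPM, and the 5d kidneys from 16.2 through 23.2 to 30.0 CPM. All 8 kidneys of the 5d group were below the sham mean of 32.9 ± 6.95 CPM, and 5 of them were below every sham kidney. The 5d mean of 23.8 ± 5.37 CPM gave a log2 difference of −0.49 (SE 0.166), a point estimate 28.8% below sham with a 95% interval from −43.9% to −9.66%. The adjusted p was 0.444. At 28d post-MI Tfrc was at 36.2 ± 10.5 CPM, from 26.6 through 33.0 to 53.7 CPM, and 3 of 6 kidneys were above every 5d kidney. The direct comparison of 28d with 5d gave a log2 difference of 0.61 (SE 0.179, adjusted p = 0.197). DESeq2 called it with an adjusted p of 0.0452, as did edgeR with no filter on low counts (adjusted p = 0.0328). Tfrc did not follow haemoglobin detectably within groups, with a slope of 0.06 (95% interval −0.27 to 0.38).

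Alas1, which makes the first haem precursor in kidney cells, varied more between kidneys than any other tested member. Sham kidneys had 80.8, 114 and 156 CPM as lowest, median and highest, and 5d kidneys 66.7, 173 and 321 CPM. At 5d post-MI 5 of 8 kidneys were above every sham kidney and 1 was below all of them. The means were 114 ± 27.8 CPM in sham, 174 ± 72.6 CPM at 5d and 136 ± 54.7 CPM at 28d post-MI. The 5d difference was 0.60 on the log2 scale (SE 0.260, 95% interval 0.06 to 1.15, adjusted p = 0.584). At 28d it was 0.25 (SE 0.284, 95% interval −0.34 to 0.84, adjusted p = 0.876), and 0.04 without 28d replicate 7. The 5d value was 0.37 (SE 0.209) with the replicate number as a block and 0.40 (SE 0.467) with the haemoglobin level as a covariate. Its slope on haemoglobin within groups was 0.13 with an interval from −0.40 to 0.66, which leaves room for a change in either direction.

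Alas2, the red cell form of the same enzyme, was almost not counted in these kidneys. It had 7 counts over the 8 sham kidneys, 6 over the 8 kidneys at 5d and 2 over the 6 kidneys at 28d post-MI, with at most 2 in any kidney. It stood at 0 in 3 sham, 4 kidneys at 5d and 4 at 28d. The group levels, here the summed counts over the summed totals without TMM factors, were 0.281 CPM in sham (exact Poisson 95% interval 0.113 to 0.579), 0.253 at 5d (0.0927 to 0.550) and 0.121 at 28d (0.0147 to 0.438), intervals that cover counting error only. Every kidney was under 3 counts, the limit that a count of 0 allows, so no fold is given. The exact permutation test of log2 CPM gave p = 0.835 for 5d against sham and p = 0.219 for 28d against sham. The intervals leave room for a 5d difference in either direction as large as that of haemoglobin RNA, so that this depth cannot show whether Alas2 moved with it.

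The later enzymes of haem synthesis showed narrow ranges and small differences at 5d post-MI. Alad, which joins the first precursors, was at 117 ± 8.11 CPM in sham, 114 ± 11.9 CPM at 5d and 114 ± 6.80 CPM at 28d post-MI. Urod, the uroporphyrinogen decarboxylase, was at 61.4 ± 6.67, 62.4 ± 5.68 and 63.4 ± 4.14 CPM in the same order. Fech, which inserts iron to complete haem, was at 100.1 ± 9.09, 104 ± 6.96 and 104 ± 5.01 CPM. The 95% interval of the 5d difference from sham ran from −9.70% to 6.56% for Alad, from −8.35% to 11.3% for Urod and from −4.04% to 12.6% for Fech. Within groups these genes had slopes on haemoglobin of 0.02, −0.02 and 0.04 on the log2 scale, with upper bounds of 0.13, 0.11 and 0.15. Increases at 5d beyond these bounds, such as the 31.4% estimated for Slc25a37, thus lie outside the interval of each of the 3.

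Cpox is the coproporphyrinogen oxidase of the mitochondrion, and its largest mean was that at 28d post-MI. It was at 119.6 ± 10.5 CPM in sham, 117 ± 8.50 CPM at 5d and 131 ± 6.71 CPM at 28d post-MI. All 6 kidneys at 28d were above the sham mean, and 2 were above every sham kidney. The log2 difference was −0.04 at 5d (95% interval −0.15 to 0.08) and 0.13 at 28d (SE 0.061, adjusted p = 0.540). Between 28d and 5d it was 0.17 (SE 0.061, adjusted p = 0.312), with 3 of 6 28d kidneys above every 5d kidney.

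Hmox1, the enzyme that opens the haem ring, had no higher level in the 5d kidneys by its mean or median. The sham kidneys ran from 26.1 through 28.7 to 36.8 CPM and the 5d kidneys from 17.6 through 26.0 to 32.5 CPM. At 5d post-MI 4 of 8 kidneys were below every sham kidney and none was above the highest. The means of 29.4 ± 3.31 and 25.3 ± 5.57 CPM gave a log2 difference of −0.22 (SE 0.152, adjusted p = 0.785), with an interval from 31.1% below to 6.53% above sham. The slope on haemoglobin within groups was 0.02 on the log2 scale with an interval from −0.28 to 0.31. The highest sham value, 36.8 CPM, was in replicate 2, a kidney with adrenal cortex RNA. The 3 kidneys that carried such RNA also include 5d replicate 5, which had the lowest 5d value, 17.6 CPM. Without these 3 kidneys the 5d difference was −0.10 (SE 0.158). Without 5d replicate 5 alone it was −0.16, the least negative value when 1 kidney was left out. With the score of the other red cell genes as a covariate it was −0.03 (SE 0.202), so that its size and the upper end of its interval depend on these choices.

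At 28d post-MI Hmox1 spread widely, from 18.7 through 35.0 to 47.2 CPM, with a mean of 34.1 ± 10.7 CPM. Of these 6 kidneys 3 were above every sham kidney and every 5d kidney, and 1 was below every sham kidney. The difference from sham was 0.22 on the log2 scale (SE 0.159, adjusted p = 0.757), and that from 5d was 0.45 (SE 0.163, 95% interval 0.11 to 0.78, adjusted p = 0.352). Without 28d replicate 6 the adjusted p of the latter was 0.0488, and with no filter on low counts it was 0.0119.

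Fth1, the ferritin subunit that oxidizes iron for storage, was the most evenly measured member. It was at 4828 ± 228 CPM in sham and 4832 ± 171 CPM at 5d post-MI, with medians of 4866 and 4860 CPM. The 5d difference was 0.0011 on the log2 scale (SE 0.035), and its 95% interval ran from −4.75% to 5.16%. At 28d post-MI it was at 5103 ± 188 CPM, with 4 of 6 kidneys above every 5d kidney, a log2 difference from sham of 0.08 (SE 0.038, adjusted p = 0.558). Fth1 has processed pseudogenes, as the near-identical alpha-globin genes have each other, and how reads common to them were counted is not given in the sources used here. Its slope on haemoglobin was −0.03 (95% interval −0.10 to 0.03).

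**Figure D2:**
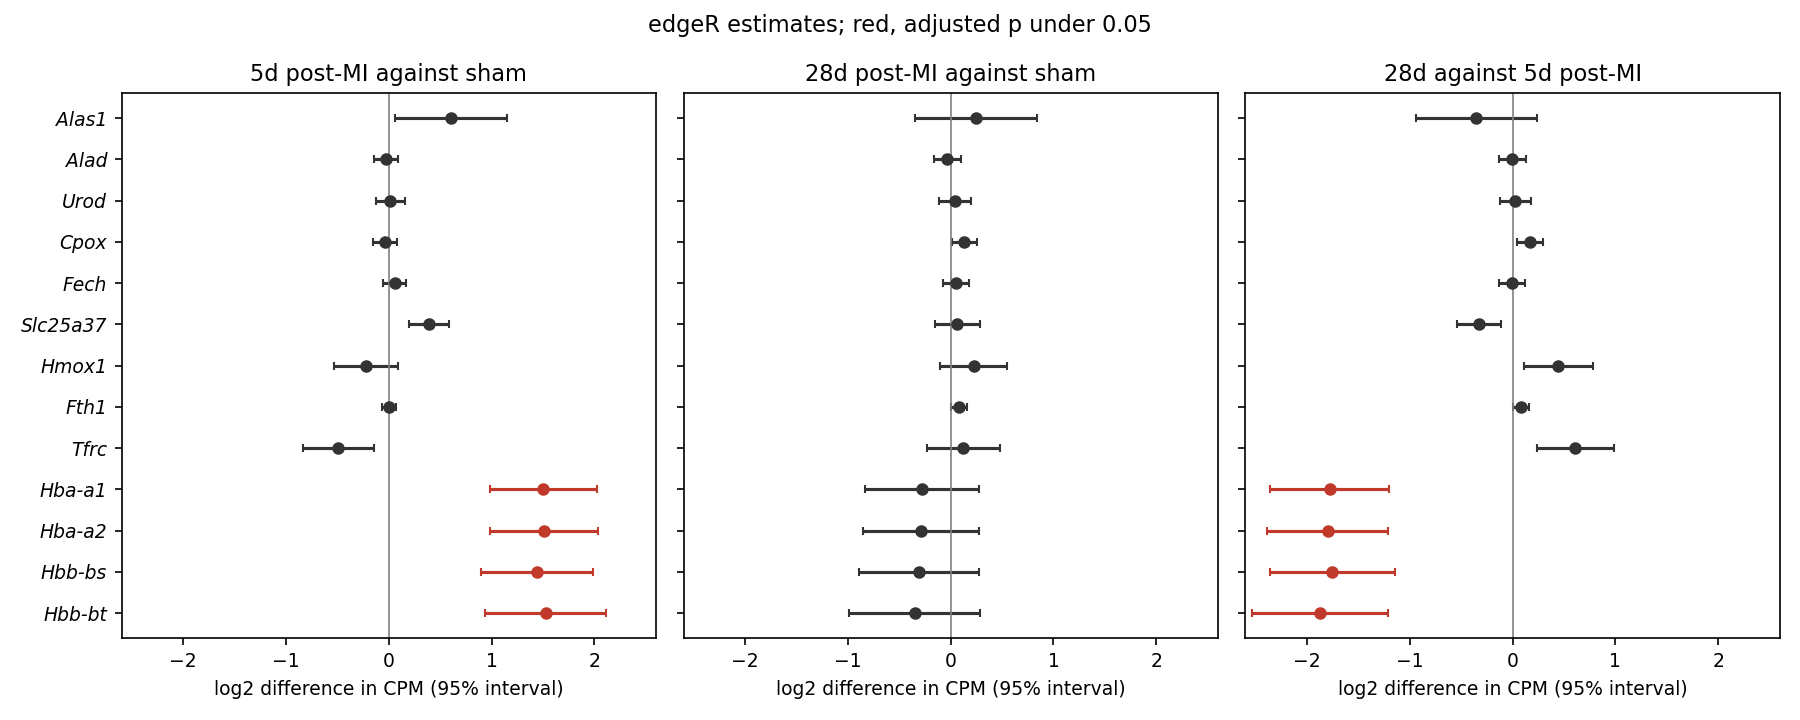
The log2 difference in CPM of the 9 tested members and the 4 haemoglobin genes is plotted for the 3 comparisons, with bars for 95% intervals and red for an adjusted edgeR p under 0.05. At 5d post-MI the haemoglobin genes lie between 1.44 and 1.53 and no member is red, with the widest member interval at Alas1.

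In the other comparisons none of the 9 tested members was called either. At 28d post-MI against sham 3 of 12780 genes were called, or 0.0235%, and 2 of 9 members, Cpox and Fth1, had an unadjusted p under 0.05 against 8.68% of all genes. Between 28d and 5d post-MI 53 genes were called, or 0.415%, the 4 haemoglobin genes among them with log2 differences between −1.75 and −1.88. Of the members 5 of 9, Tfrc, Slc25a37, Cpox, Hmox1 and Fth1, had an unadjusted p under 0.05, against 9.05% of all genes. This comparison is also the test of whether a change differed between the times, and since both times were set against the same sham kidneys, their changes are not independent of each other.

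The slope on haemoglobin within groups asks which genes moved with blood RNA apart from the group means. It was called for 3 of 12776 genes, or 0.0235%, and for 0 of 9 members. Slc25a37 alone of the members had an unadjusted p under 0.05, against 4.62% of all genes.

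**Figure D3:**
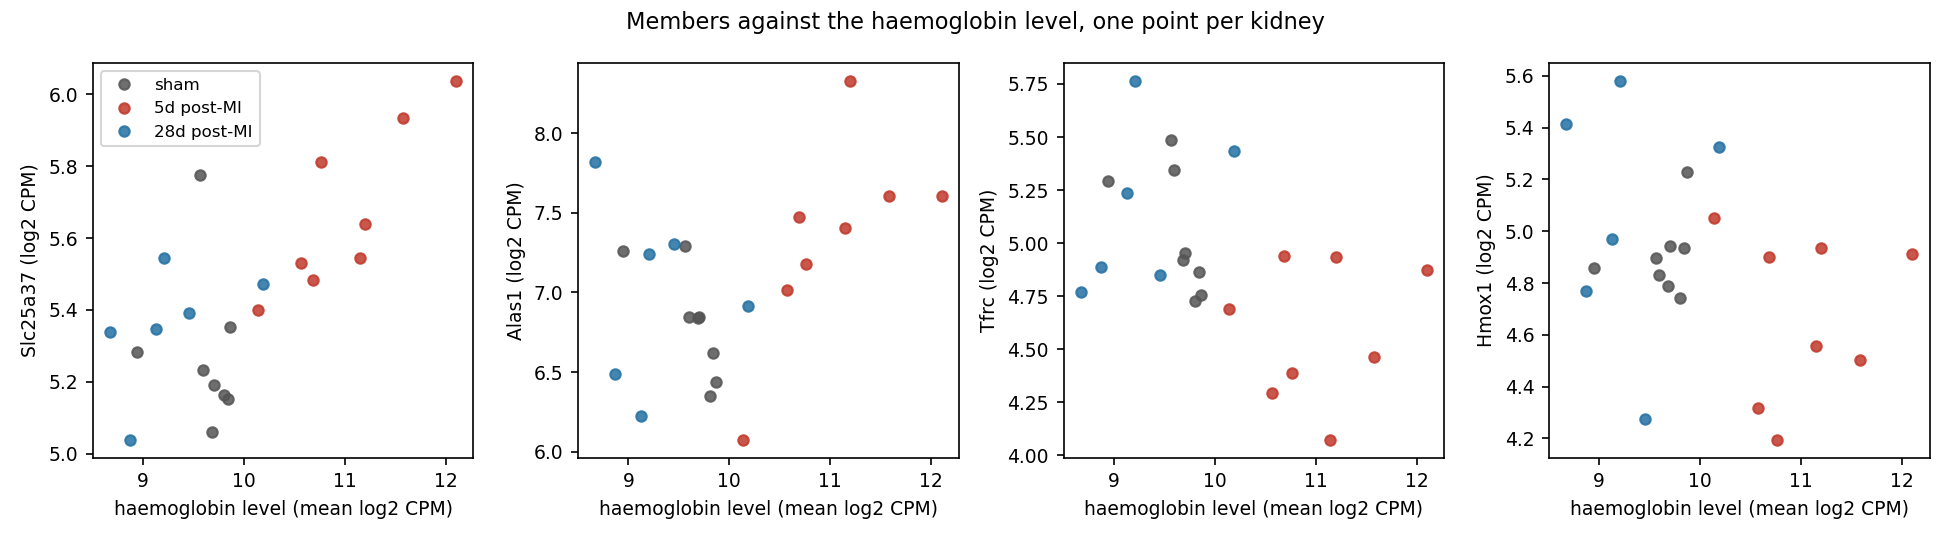
The log2 CPM of Slc25a37, Alas1, Tfrc and Hmox1 in each kidney is plotted against its haemoglobin level, the mean log2 CPM of 4 haemoglobin genes, with colours for the groups. Slc25a37 is highest in the 2 kidneys of the 5d group with the most haemoglobin. The 2 highest Hmox1 values are in 28d kidneys with haemoglobin levels of 9.21 and 8.67. The next is in the 28d kidney with the most haemoglobin, at 10.2.

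The rest of the pathway was taken from lists of 72 further genes, of which 58 had enough counts. None was called in any of the 3 comparisons between groups. At 5d post-MI 4 had an unadjusted p under 0.05 with a higher level and 3 with a lower level, where 7.9% of all tested genes had such a p in either direction. The higher ones were Ncoa4, which delivers ferritin for breakdown (log2 0.32, SE 0.124), the haem exporter Flvcr1 (0.34, SE 0.143), its relative Flvcr2 (0.34, SE 0.162) and the cysteine desulphurase Nfs1 (0.13, SE 0.061). The lower ones were Uros of haem synthesis (−0.25, SE 0.116), the haemopexin receptor Lrp1 (−0.20, SE 0.093) and the iron transporter Slc11a2 (−0.15, SE 0.068). The median log2 difference of the 58 genes was 0.0017, beside 0.00018 for all 12780 tested genes.

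By role, the other genes of haem synthesis had a median log2 difference of 0.02 at 5d (11 tested), with 6 above 0, and those of haem breakdown and transport −0.01 (14 tested, 6 above 0). The median was −0.0011 for iron uptake (10 tested, 5 above 0), 0.09 for iron storage and export (8 tested, 7 above 0), −0.0023 for iron sensing and iron-sulphur clusters (12 tested, 5 above 0) and −0.13 for the signals of red cell production (3 tested, 1 above 0). The light chain of ferritin, Ftl1, had a log2 difference of 0.01 (SE 0.058), and the biliverdin reductases Blvra and Blvrb had 0.03 (SE 0.060) and −0.14 (SE 0.076). These genes are named for their place beside the members and were chosen after their values were seen. The hormone genes Epo and Erfe, which signal for red cells and from their precursors, were at 0 counts in all 22 kidneys. Hpx, of haem scavenging, and Cd163, of haemoglobin scavenging, stayed under the filter with 12 and 101 counts in all. The haptoglobin gene Hp, also chosen after its values were seen, passed the filter. It was at 23.9 ± 11.1 CPM in sham, 18.1 ± 12.4 CPM at 5d and 15.5 ± 5.33 CPM at 28d post-MI.

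At 28d post-MI 3 of the 58 pathway genes had an unadjusted p under 0.05 against sham, where 8.68% of all tested genes did. Among them Isca1 of iron-sulphur assembly had a log2 difference of −0.15 (SE 0.070) and the metal importer Slc39a8 0.21 (SE 0.103). Against 5d the iron exporter ferroportin, Slc40a1, had a log2 difference of −0.33 (SE 0.120), its partner ceruloplasmin, Cp, −0.60 (SE 0.225) and Uros 0.29 (SE 0.127).

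**Figure D4:**
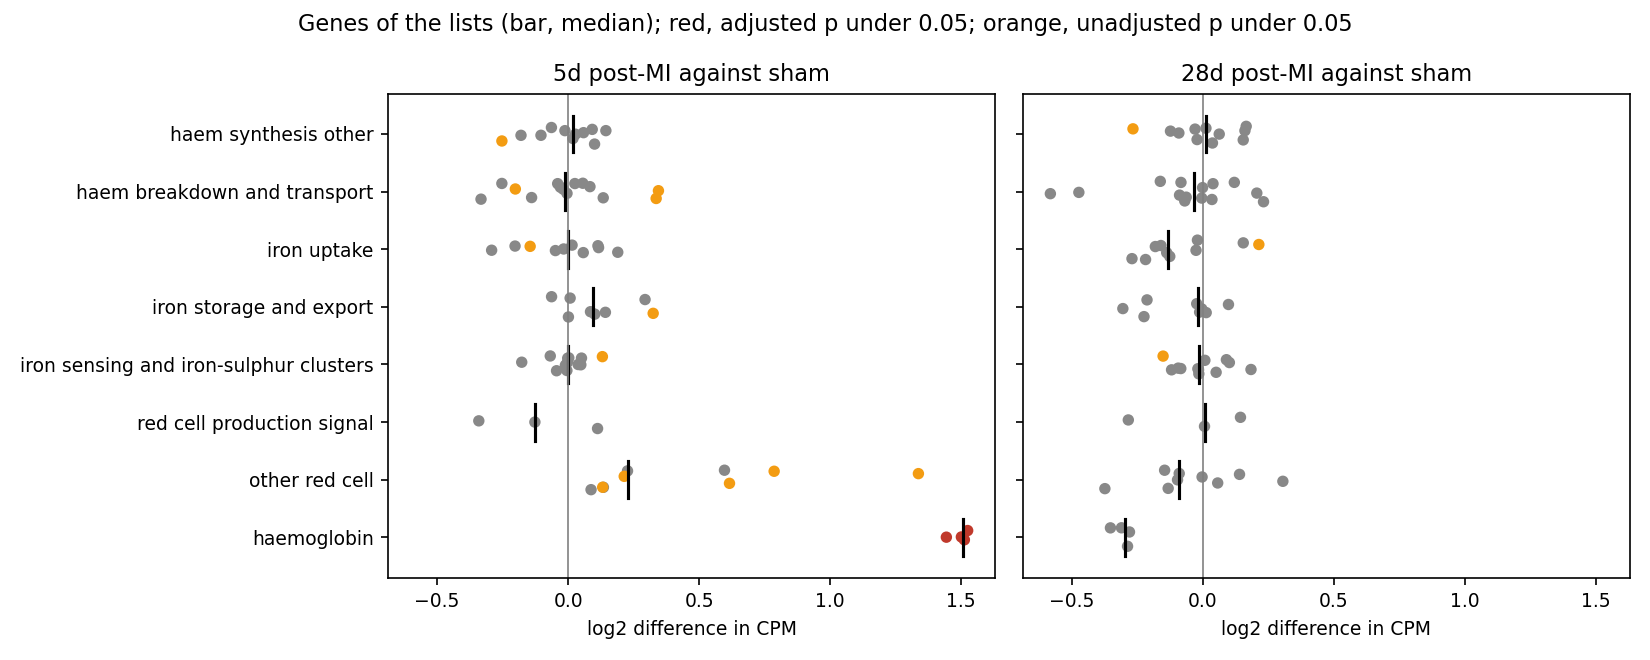
Each point is the log2 difference in CPM of 1 tested gene of a list, for each time after MI against sham, with a bar at the list's median and colours for the p-value. The haemoglobin genes lie between 1.44 and 1.53 at 5d and the pathway lists have medians between −0.13 and 0.09 there.

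Markers of other cells moved as follows beside these results. Of 22 other red cell genes 9 had enough counts. All 9 were above 0 in the 5d comparison, with a median log2 difference of 0.23, and 5 had an unadjusted p under 0.05, among them Isg20 (1.34), Sptb (0.79), Bpgm (0.21) and Bnip3l (0.13), with none called. The summed level of the list was 270.1 to 304 CPM in sham, 295 to 418 CPM at 5d and 250.5 to 299.6 CPM at 28d post-MI. Kidney cells also express Slc4a1, Bpgm, Mkrn1, Bnip3l, Ube2l6 and Ank1 of this list. Sham means of Bnip3l, Mkrn1, Bpgm and Slc4a1 were 102, 75.6, 51.0 and 27.1 CPM, so that such genes made up most of the sum. The sum is therefore not a measure of blood alone. Under the filter and untested, Gata1 and Rhag, which mark red cell precursors, had 1 count each, in a 5d kidney, and 0 in the sham and 28d groups. Of 9 genes of macrophages, cells that recycle haem iron and express Hmox1, 7 were tested and all 7 were below 0 at 5d, with C1qa at −0.33 (SE 0.121) and C1qb at −0.34 (SE 0.101), and the summed level was 99.2 to 154 CPM in sham and 93.6 to 141 CPM at 5d. Proximal tubule genes, which define the labelled tissue, summed to between 5609 and 8206 CPM in every kidney. Adipocyte genes summed to 306 to 1425 CPM in sham, 138 to 1013 CPM at 5d and 275 to 689 CPM at 28d post-MI. Adrenal cortex genes stood at 976 and 727 CPM in sham replicates 2 and 6 and at 85.2 CPM in 5d replicate 5, and at no more than 4.27 CPM elsewhere. The part of these tissues in the values of the members was not tested beyond the fits without the 3 kidneys or with these scores as covariates.

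The members differed in which genes they resembled from kidney to kidney. Likeness was the Pearson correlation of log2 CPM over the 22 kidneys after each group's mean was taken away, and it is a description, since these points share library depth and tissue makeup. Alas1 was most like Per2, a gene of the circadian clock (r = 0.90), followed by B4galt1 (0.88), Tnfrsf21 (0.87), Mbd1 (0.86) and Susd3 (0.86). Per2 itself had a log2 difference from sham of 0.69 at 5d (SE 0.383, adjusted p = 0.707) and of 0.66 at 28d (SE 0.417, adjusted p = 0.711).

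Hmox1 was most like Atf4, the transcription factor of the integrated stress response (r = 0.80), then Erp29 (0.77), Banp (0.77), H2afx (0.76) and Exoc5 (0.75). Atf4 had a log2 difference from sham of −0.01 at 5d (SE 0.069) and of 0.43 at 28d post-MI (SE 0.073, adjusted p = 0.00974). With the haemoglobin gene Hba-a2, Hmox1 had a correlation of −0.02 by the same measure.

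Tfrc was most like the proteasome subunit gene Psmd7 (r = 0.88), then Memo1 (0.82), Gm10053 (0.82), Gk (0.80) and Eif4g1 (0.78). Slc25a37 was most like Sec61g (0.77), Zfr (0.77), 1810055G02Rik (0.76), Lingo4 (0.75) and Otub1 (0.74), and had a correlation of 0.50 with Hba-a2. Fth1 was most like Cyba (0.71), Akr1a1 (0.71), Tmem59 (0.70), Aqp11 (0.70) and Akr7a5 (0.70). Among the pairs that include Alas1, Slc25a37, Hmox1, Tfrc or Fth1, the highest values between members were those of Tfrc with Cpox (0.68), Slc25a37 with Fech (0.52) and Tfrc with Hmox1 (0.51), while Alas1 had 0.09 with Hmox1 and 0.24 with Tfrc.

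**Figure D5:**
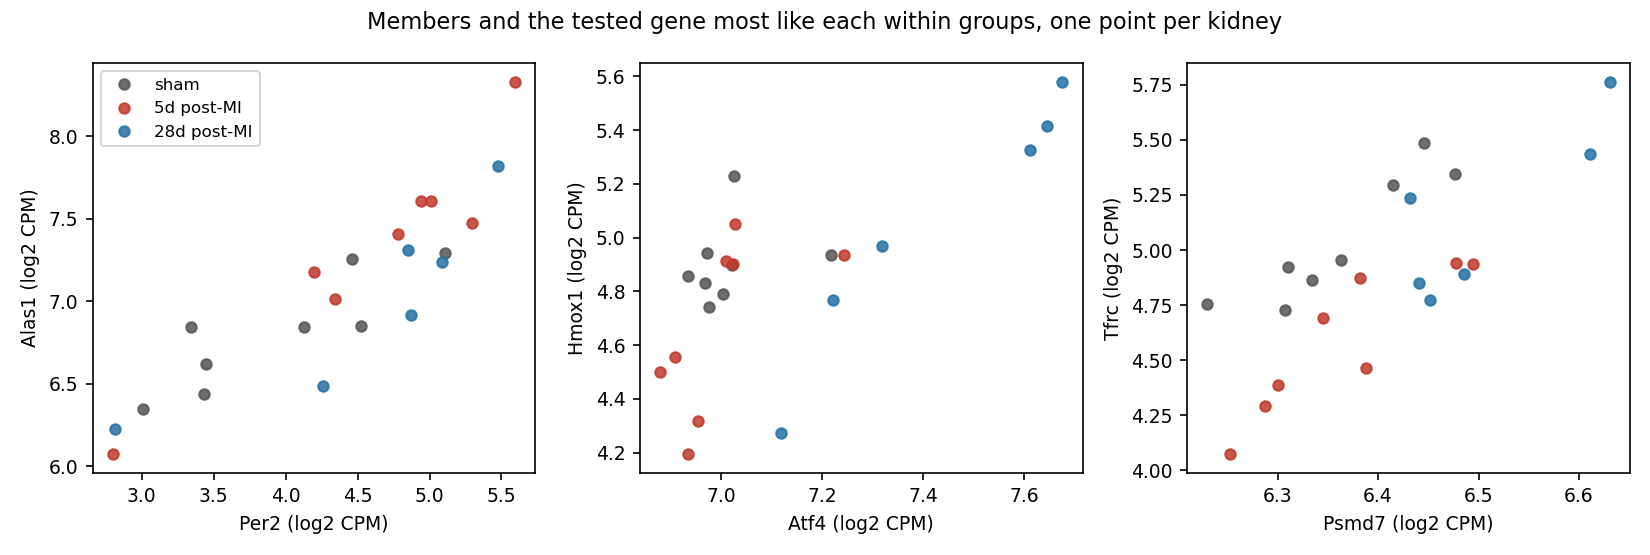
The log2 CPM of Alas1, Hmox1 and Tfrc is plotted against that of the tested gene most like each within groups, Per2, Atf4 and Psmd7, with 1 point per kidney and colours for the groups. The correlations over the 22 kidneys after removal of group means are 0.90, 0.80 and 0.88.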

How the data were processed

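Kidney RNA was sequenced from the 3′ end (MACE) in 24 mice. The authors trimmed reads with Cutadapt and counted genes with HTSeq. Bowtie2 and FastQC are named in the submitters' processing notes. The paper gives genome mm10 and these notes mm39, and the annotation and strand setting are not given in the sources used here. The authors deposited whole-number counts per gene and kidney, and values named tpm that are CPM of the authors' own scaling, equal to counts over the kidney's total within 5e-06. Of 48 value columns 4 were not used, since their names are shared by 1 kidney of the 5d group and 1 of the 28d group, which left 22 kidneys. Median total counts were 3206757 (sham), 3057829 (5d) and 2644574 (28d post-MI).

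Symbols were matched by identifier to GENCODE M21 (51948 of 56941), and positions are on GRCm38. Genes past edgeR's filterByExpr (minimum count 10) numbered 12780. Counts were fitted with TMM factors by edgeR 4.0.16 (robust quasi-likelihood, two-sided F tests) with 3 groups and no covariate. Genes were called at a Benjamini-Hochberg adjusted p under 0.05 over all tested genes. Levels are CPM with TMM factors, and log2 CPM had a prior count of 2. Standard errors are the log2 difference over the square root of F, and 95% intervals use edgeR's degrees of freedom. The slope was tested with group and haemoglobin level in 1 model, without the 4 haemoglobin genes. The fits were tested on simulated data. The alternatives were DESeq2 1.42.0, limma's voom (3.58.1), no filter, fits of 2 groups, covariates, the replicate number as a block, leaving out kidneys, and, chosen after seeing the data, leaving out the 3 kidneys with over 50 CPM of adrenal cortex genes. R was 4.3.3 and Python 3.11.15.

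Replicates are separate mice per the labels and the paper's methods. No pair of kidneys within a group agreed within sampling noise (71 pairs, chi-squared per degree of freedom 1.73 to 7.84). All 10 members were named, with pathway genes called or among the 8 lowest unadjusted p under 0.05 in a comparison, and the 5 tested genes most like a member. Members and lists were chosen with earlier results of these data known. Some genes that this rule names are not reported here.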

Additional observations from a re-analysis of the deposited data

Results flagged for a closer look

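Among 30 groups of values, those of the members and of the haemoglobin sum in each group, 3 held a kidney far from the others of its group, where chance gives about 1 in 20. Slc25a37 was 54.1 CPM in sham replicate 8, where the median of the other sham kidneys was 35.9 CPM. Hmox1 was 36.8 CPM in sham replicate 2, where the median of the others was 28.3 CPM, and this kidney also had 976 CPM of adrenal cortex genes. The haemoglobin sum was 2200 CPM in sham replicate 4, against a median of 3652 CPM in the others.

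The change from sham differed between 28d and 5d post-MI for the haemoglobin genes by the contrast of the times in edgeR. The log2 difference was −1.78 for Hba-a1 (adjusted p = 0.00375), −1.80 for Hba-a2 (adjusted p = 0.00375), −1.75 for Hbb-bs (adjusted p = 0.00617) and −1.88 for Hbb-bt (adjusted p = 0.00661). No member met this criterion.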

How the results depend on the processing

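Of 1152 values of single members under alternatives, 1075 kept their direction and their side of the threshold, 8 passed the threshold, 69 turned sign and 0 lost a call. The depth, 2280618 to 3786275 counts per kidney, limits Alas2, Epo and other genes near 0.

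The number of members called at 5d was 1 with no filter and 0 to 1 when 1 kidney was left out. Between 28d and 5d it was 1 with DESeq2, 3 with no filter and 0 to 1 when 1 kidney was left out, and at 28d 0 to 0. Genes called at 5d (9) were 35 with DESeq2, 5 with voom, 80 with no filter, 0 with the haemoglobin or other red cell score as covariate, 1 with adipocyte and adrenal scores, 2 with edgeR and 34 with DESeq2 on those groups alone, 2 without the adrenal kidneys, and 1 to 38 when 1 kidney was left out. At 28d (3) they were 30, 5 and 94 in the first 3 of these, 31 and 60 with those groups alone, 1 without the adrenal kidneys, and 0 to 29. Between 28d and 5d (53) they were 93 with DESeq2, 160 with no filter, 0 with the haemoglobin or other red cell score as covariate, 26 and 86 with those groups alone, and 41 to 84. For the slope (3) they were 15 with no filter, 1 with adipocyte and adrenal scores, 0 with the other red cell score, 1 without the 2 farthest kidneys, and 1 to 3.

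Replicate numbers did not pair the kidneys: over 18 same-numbered pairs the correlation was −0.13 to 0.09, 0 of them over 0.1. With the replicate block 2 genes were called at 5d, 24 at 28d, 80 between the times and 1 for the slope, and the block changed no call of a member. It turned Urod at 5d to −0.0045, Alad between the times to 0.0070, and the slopes of Alas1 to −0.027, Cpox to 0.033 and Hmox1 to −0.050.

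The other changes of sign were in values that were not called. With the haemoglobin level as covariate Fech was −0.0028 at 5d, and between the times Fech was 0.068, Alad 0.031, Urod −0.011 and Slc25a37 0.055. With the other red cell score as covariate Fech between the times was 0.037. With adipocyte and adrenal scores as covariates Fech, Urod and Fth1 were −0.0094, −0.054 and −0.017 at 5d, and Fech and Urod −0.016 and −0.037 at 28d. Without the adrenal kidneys Fech and Alad between the times were 0.0021 and 0.022, and the slope of Hmox1 was −0.0376. With the other red cell score in place of haemoglobin the slopes were −0.20 for Alas1, −0.018 for Alad, 0.013 for Cpox, −0.65 for Hmox1 and −0.41 for Tfrc, and without the 2 farthest kidneys −0.0041 for Fech and −0.015 for Hmox1. When 1 kidney was left out, the values that turned ran from −0.019 to 0.061 (Urod, 5d), −0.014 to 0.014 (Fth1, 5d), −0.019 to 0.20 (Tfrc, 28d), and between the times −0.0265 to 0.0198 (Fech), −0.028 to 0.025 (Alad) and −0.0022 to 0.052 (Urod). The slopes ran from −0.10 to 0.32 (Alas1), −0.0056 to 0.068 (Fech), −0.0071 to 0.052 (Alad), −0.071 to 0.0013 (Urod), −0.062 to 0.017 (Cpox), −0.053 to 0.12 (Hmox1) and −0.015 to 0.12 (Tfrc).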

Other observations

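Genes whose RNA was called as following the haemoglobin level within groups included Hba-ps3, a haemoglobin pseudogene (slope 0.93 on the log2 scale, SE 0.116, adjusted p = 0.000104), and Tent5c, a poly(A) polymerase gene (0.68, SE 0.127, adjusted p = 0.0264). Both were named after their values were seen. Reads of Hba-ps3 may be shared with the alpha-globin genes that it resembles, so its value is uncertain. Bpgm, which makes the 2,3-bisphosphoglycerate of red cells, had a slope of 0.28 (SE 0.067, adjusted p = 0.510), and of 0.15 (SE 0.084) without the 2 kidneys farthest from the median haemoglobin level.

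Several genes of iron biology were too low to test in whole kidney. Over all 22 kidneys Hamp, the gene of hepcidin, had 6 counts, Hjv 6, Tfr2 17, Hmox2 28, Cybrd1 52, Lcn2 134 and Scara5 155, and the mitochondrial ferritin gene Ftmt had 0.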
